A study of Mus musculus with 13 samples.

Results

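The CCN family is a group of secreted matricellular proteins, and 5 of its genes, Ccn1 to Ccn5, of the 32285 genes counted were followed here in mouse mammary fibroblasts. The genes were taken by symbol. They had been chosen from their own values in these libraries, namely their UMI counts scaled to library depth (CPM) in each library and their detection by fibroblast state, so each fibroblast value of a CCN gene below is a description without a test. All 5 passed the filter on low counts in each fibroblast comparison, and 2 of 5 passed it in pericytes. Ccn6, a family member outside the list, had 1 to 10 UMIs per library in fibroblasts.

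CCN proteins bind integrins and heparan sulfate proteoglycans at the cell surface and in the matrix, and they tune how a cell answers growth factors such as TGF-beta, BMPs and VEGF. Ccn1 (Cyr61) and Ccn2 (Ctgf) are classical targets of YAP and TAZ acting through TEAD factors, and both are induced quickly by serum and by mechanical load. Ccn3 (Nov) is known as a regulator of growth and adhesion, and Ccn4 (Wisp1) and Ccn5 (Wisp2) carry the name of Wnt1-inducible proteins. Ccn5 lacks the C-terminal module that the other members share.

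The study followed mammary fibroblast states through development, under hormones and in a tumour model by 3′ single-cell RNA sequencing of 13 libraries in 9 groups, all from female mice. Wild-type C57BL/6 glands gave sorted Lin-CD24- stroma at puberty (4 weeks by the labels, with a slightly later age in the study's methods), in the 9-week virgin adult, at day 14.5 of pregnancy, day 10 of lactation and day 4 of involution, with 1 library per stage from 2 females. Wild-type 9-week C57BL/6 mice carrying slow-release pellets of placebo, or of medroxyprogesterone acetate with estradiol (MPA+E), gave 2 libraries per arm from the same sort, each from a separate pair of females. The raGFP-Wnt1 mice (Pdgfra-GFP KI/+ MMTV-Wnt1 T/+, C57BL/6 FVB mixed background) gave 1 hyperplasia and 1 tumour library from each of 2 mice, aged 45 weeks (mouse 1) and 17 weeks (mouse 2), as sorted GFP-positive cells. In this model the MMTV promoter drives Wnt1 mainly in mammary epithelium, and GFP marks cells that use the Pdgfra gene, so stroma without GFP was not sampled.

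The 5 genes lie on 4 chromosomes of the GRCm38 build. Ccn1 is at chr3:145646976-145649981 on the minus strand. Ccn2 is at chr10:24595442-24598683, Ccn3 at chr15:54745702-54754039, Ccn4 at chr15:66891320-66923201 and Ccn5 at chr2:163820861-163833146, each on the plus strand. In the GENCODE annotation their longest coding sequences held 379, 348, 354, 367 and 251 codons in that order, and Ccn5 was the shortest. The promoter of Ccn1 is shown because Ccn1 held most of the family's UMIs and because TEAD and serum-response genes are described beside it. It was the only promoter of the 5 genes found in the RefSeq table used here (GRCm38.p6). The window runs 5′ to 3′ on the minus strand, chr3:145649936-145650235, from 250 bases before the start to 50 after it, and capitals mark 2 searched motifs.
Ccn1 promoter: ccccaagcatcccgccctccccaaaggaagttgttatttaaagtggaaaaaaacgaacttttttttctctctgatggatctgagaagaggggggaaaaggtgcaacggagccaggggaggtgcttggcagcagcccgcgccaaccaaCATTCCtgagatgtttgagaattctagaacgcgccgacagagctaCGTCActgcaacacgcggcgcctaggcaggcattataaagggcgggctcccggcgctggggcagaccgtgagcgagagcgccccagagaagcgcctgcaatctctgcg
The TEAD core GGAATG was searched on both strands and matched on the opposite strand as CATTCC, with its first base 103 bases upstream of the start. The cAMP-response core TGACG was likewise matched as CGTCA, 58 bases upstream. Of the 32851 promoters of this length, 14.7% held the TEAD core and 20.8% the cAMP-response core, so each match is a description of the letters and not a site.

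The libraries held 4236 to 11951 fibroblast barcodes each, 100523 in all, and the median UMIs per fibroblast ran from 3990 in pregnancy to 20256 in tumour 2. A fibroblast barcode had 500 to 7500 genes, at most 10% mitochondrial UMIs, at least 50 UMIs of Dcn, Lum and Col1a2 per 10000, and no UMI of Epcam, Pecam1, Rgs5, Sox10, Ptprc or Myog. Dcn, a gene of this rule, was at 3173 to 13434 CPM, a level that the rule helps to set. Pdgfra, which is outside the rule, was at 117 to 622 CPM. The raGFP-Wnt1 cells had been sorted by a reporter of Pdgfra. Pairs of libraries shared at most 0.504% of the barcodes of the smaller library. Greb1, an estrogen target, was at 6.03 and 6.82 CPM under placebo against 105 and 90.6 under MPA+E, which matched the labels.

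Ccn1 was the most abundant member in 12 of 13 libraries. It made up 68.9% to 84.3% of the family's UMIs in the 11 libraries outside the tumours, 38.9% in tumour 1 and 35.8% in tumour 2, where Ccn2 held 43.8%. A UMI counts a molecule by its 3′ end, so these shares were not divided by gene length. The family as a whole was at 475, 556, 496, 884 and 940 CPM in puberty, adult, pregnancy, lactation and involution, at 1194 and 1107 under placebo, 1263 and 1243 under MPA+E, 1178 and 1375 in hyperplasia and 2119 and 2167 in the tumours. The puberty, adult and pregnancy libraries were thus the lowest and the tumours the highest. A library's CPM sums over all its fibroblasts, so fewer cells of a state and less RNA per cell cannot be told apart in it.

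**Figure D1:**
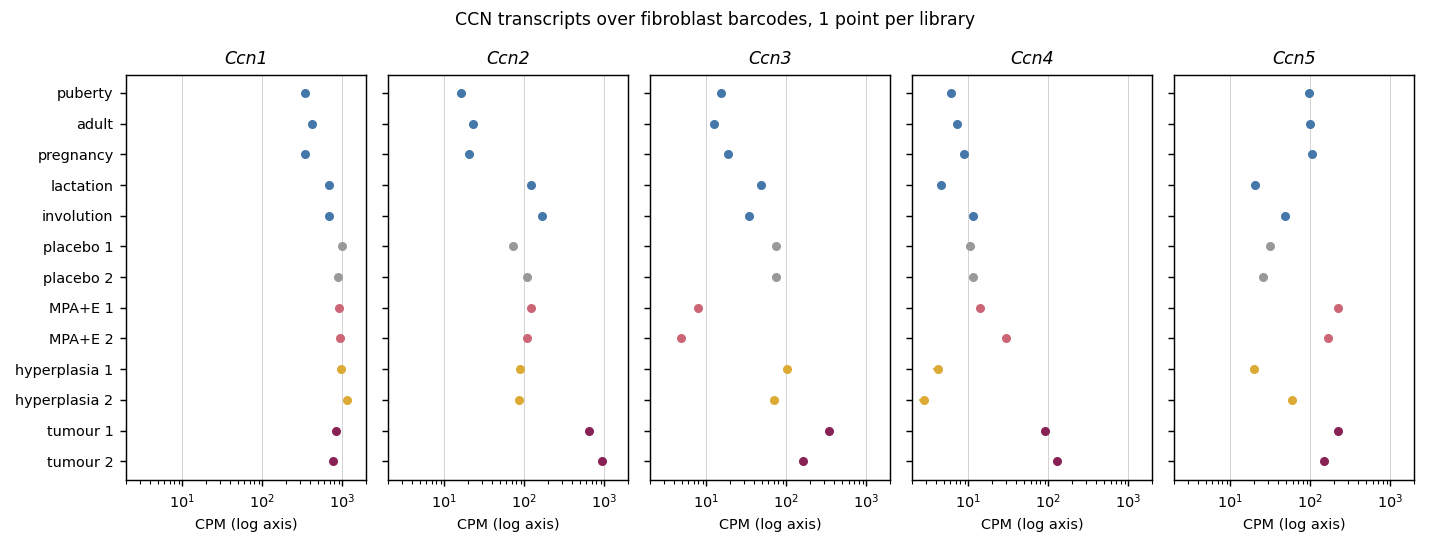
CPM of the 5 CCN genes over fibroblast barcodes, 1 point per library on a log axis, with counting intervals that are mostly smaller than the points. Ccn2 spans 16.2 to 948 CPM, Ccn3 is lowest in the MPA+E libraries (7.89 and 4.86), and Ccn4 is highest in the tumours (91.3 and 130).

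Across the 5 stages, Ccn1, Ccn2 and Ccn3 were higher in lactation and involution than in puberty, adult and pregnancy, and Ccn5 was lower there. Each stage had 1 library, so these differences have no replicate check, and the intervals cover counting error only. Ccn1, an adhesive ligand of integrins, was at 339, 414 and 342 CPM in puberty, adult and pregnancy and at 690 and 679 CPM in lactation and involution. Lactation exceeded puberty 2.03-fold (95% interval 2.00 to 2.07). Ccn2, a mediator of matrix deposition, was at 16.2, 23.2, 20.4, 121 and 166 CPM in the same order. This was the widest range of the 5 genes, involution exceeding puberty 10.3-fold (9.59 to 11.1). Ccn3 was at 15.3, 12.5, 18.9, 48.1 and 34.7 CPM, and lactation exceeded the adult 3.85-fold (3.57 to 4.15).

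Ccn5, known to restrain the growth of smooth muscle cells, was at 97.5, 98.8 and 106 CPM in puberty, adult and pregnancy, at 20.1 in lactation and at 48.2 in involution. Pregnancy exceeded lactation 5.26-fold (4.94 to 5.60). Ccn4 stayed low, at 6.18, 7.30, 8.88, 4.63 and 11.4 CPM, with involution above lactation 2.47-fold (2.16 to 2.83). Pgr, the progesterone receptor gene, was at 43.5, 41.1, 34.8, 4.08 and 11.7 CPM in the same order. The 6 epithelial markers in the fibroblast barcodes, with Epcam at 0 by rule, summed to 21.6, 30.6, 53.5, 5.43 and 12.4 CPM, and the 5 endothelial markers, with Pecam1 at 0 by rule, to 23.1, 27.1, 41.8, 5.32 and 15.9 CPM. Both were lower in lactation and involution, as Ccn5 and Pgr were. Milk genes, which are not among these markers, ran otherwise. A cluster of the fibroblast barcodes led by Wap, Csn1s1 and Csn2 held 5.81%, 3.52%, 4.27%, 11.7% and 4.87% of barcodes in the same order. UMIs of milk genes count in the totals that CPM divides by. The part of Pgr, of these markers and of milk genes in the CCN levels was not tested.

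The size of these stage differences stands beside that between libraries of mice alike in age, strain and sort. The adult and both placebo groups were 9-week wild-type females of the same strain and sort, yet the placebo libraries exceeded the adult 2.43 and 2.15-fold for Ccn1, 3.08 and 4.61-fold for Ccn2, 5.95 and 5.96-fold for Ccn3 and 1.45 and 1.59-fold for Ccn4. Ccn5 in placebo was at 0.316 and 0.263 of its adult level. For Ccn1 and Ccn3 the gap was above the largest gap between stages, and for Ccn2, Ccn4 and Ccn5 it was below it. Median depth was 5805 UMIs in the adult and 14158 and 12475 under placebo. Greb1 was at 28.6 against 6.03 and 6.82 CPM and Pgr at 41.1 against 9.59 and 13.7 CPM, both higher in the adult, as Ccn5 was. The pellet, the preparation, the hormone state and the depth cannot be told apart.

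The summed level of 20 immediate early genes, which handling of tissue can induce, is given beside Ccn1 and Ccn2 for the same reason. It was 27489, 33297, 29655, 33215 and 38261 CPM in the stages, 45766 and 43190 under placebo, 36356 and 40357 under MPA+E, 64143 and 54237 in hyperplasia and 35270 and 23561 in the tumours. Both hyperplasia libraries were the highest and tumour 2 the lowest. The 6 heat-shock genes summed to between 2108 CPM (tumour 1) and 5572 CPM (involution). The part of these genes in the Ccn1 and Ccn2 levels was not tested.

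Under MPA+E, Ccn3 was lower and Ccn5 higher than under placebo, while Ccn1 was level. Ccn3 was at 74.5 and 74.5 CPM in the placebo libraries and at 7.89 and 4.86 CPM in the MPA+E libraries. The arms did not overlap, and the fitted log2 fold change was -3.55 ± 0.22 (SE, n = 2 and 2). Ccn5 was at 31.2 and 26.0 CPM under placebo against 221 and 166 CPM under MPA+E, again without overlap, a log2 fold change of 2.77 ± 0.15. The arms of Ccn2 and Ccn4 below did not overlap either, and the share of all genes without overlap was not counted.

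The other members moved less. Ccn1 was at 1006 and 888 CPM under placebo against 898 and 932 under MPA+E, with overlapping arms and a log2 fold change of -0.03 ± 0.12. Ccn2 was at 71.4 and 107 CPM under placebo against 121 and 109 under MPA+E, with a log2 fold change of 0.36 ± 0.24 that ran from 0.05 without placebo 1 to 0.76 without placebo 2. Ccn4 was at 10.6 and 11.6 CPM under placebo against 13.8 and 30.1 under MPA+E, a log2 fold change of 1.01 ± 0.40. That of Ccn4 was 0.28 without MPA+E 2 and 1.49 without MPA+E 1, so MPA+E 2 set most of it. In the edgeR fit of 15642 genes, 678 (4.33%) passed an adjusted p of 0.05, 421 (2.69%) higher and 257 (1.64%) lower. Of the 5 members 1 was on the higher and 1 on the lower side, with a median log2 fold change of 0.36 against 0.01 for all genes, and nothing is read from this because the members were chosen with it in view. The endothelial markers in the fibroblast barcodes, 5 genes with Pecam1 at 0 by rule, summed to 14.6 and 14.6 CPM under placebo against 43.9 and 45.8 under MPA+E, and the 6 epithelial markers, with Epcam at 0 by rule, to 29.9 and 27.5 against 5.13 and 4.96. Their part in the CCN levels was not tested.

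**Figure D2:**
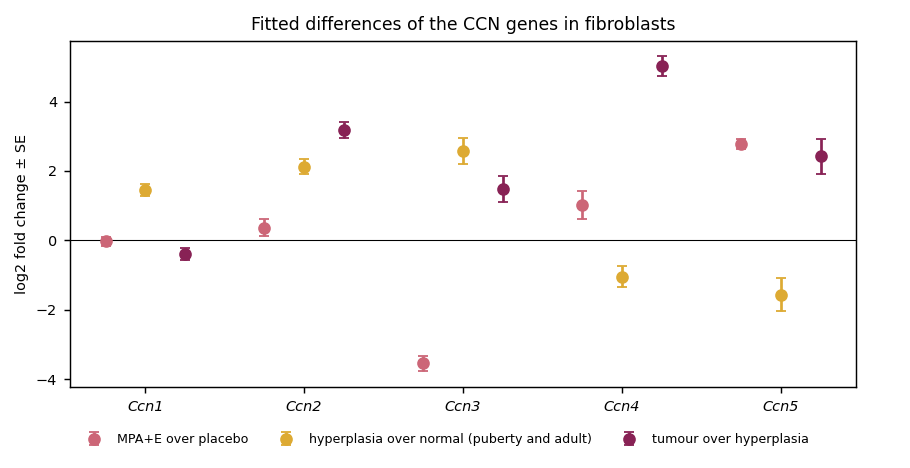
Log2 fold changes of the 5 CCN genes in fibroblasts for MPA+E over placebo (edgeR), hyperplasia over normal glands and tumour over hyperplasia (limma-voom), with bars for ± 1 SE. Ccn3 lies at -3.55 and Ccn5 at 2.77 under MPA+E, and Ccn4 lies at 5.02 and Ccn2 at 3.17 in tumours over hyperplasia.

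Genes of the pathways that CCN genes are known to serve or read, none of them a member, were mostly not called under MPA+E by edgeR's quasi-likelihood test with Benjamini-Hochberg adjustment over all genes. The lists, here and in the comparisons below, were chosen with earlier results of these data known. Of all genes 4.33% were called. The share was 40% of Wnt targets and regulators, 16.7% of heat-shock genes, 15% of TEAD-YAP targets and 8.33% of TGF-beta induced genes. It was 6.25% of Hippo pathway genes, 5.56% of receptors and partners and 0% in the remaining lists. Of 20 TEAD-YAP targets 1 rose and 2 fell, with a median log2 fold change of -0.28. Igfbp3, which binds insulin-like growth factors, fell from 135 and 181 CPM to 30.1 and 34.2 CPM (log2 fold change -2.29 ± 0.22, adjusted p 0.0118). F3 fell by 0.89 on the log2 scale, and Ccdc80 rose by 0.79. Of 12 genes induced by TGF-beta 1 fell, Tgfbi, an integrin-binding matrix protein, from 102 and 126 CPM to 19.7 and 14.6 CPM (-2.74 ± 0.20, adjusted p 0.00745). Of 10 Wnt targets and regulators tested 3 fell and 1 rose. Dkk2 and Nkd1, both Wnt antagonists, fell by 1.47 and 1.57 on the log2 scale, Sfrp2 fell by 0.93, and Wif1, which rose, was near the detection floor at 1.02 CPM or less. Of 18 CCN receptors and partners 1 rose, the integrin subunit gene Itgb3, from 39.4 and 35.4 CPM to 69.4 and 64.1 CPM (0.85 ± 0.08, adjusted p 0.0121). Of 16 Hippo pathway genes 1 fell (Vgll4), of 6 heat-shock genes 1 rose (Hspa1b), and none of the 12 SRF targets and 20 immediate early genes was called. Among the SRF targets 2 had an unadjusted edgeR p under 0.05 and DESeq2 called 0, and among the immediate early genes 5 had one and DESeq2 called 4. In the other lists DESeq2 called 7 TEAD-YAP targets, 6 Wnt targets and regulators, 3 receptors and partners, 2 genes induced by TGF-beta, 2 heat-shock genes and 1 Hippo pathway gene. In the 4 fits that leave out 1 library, Tgfbi was called in 4, Igfbp3 in 3, and the others in 1 or 2. Each of the others lost its call without placebo 1 and without placebo 2 (22 and 42 genes called in all), and Ccdc80 and Wif1 lost it also without MPA+E 1 and Hspa1b and Sfrp2 without MPA+E 2. Ccdc80, Wif1 and Sfrp2 were not called with no marker rule for barcodes, nor F3 with no filter on low counts.

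The fibroblasts were clustered without the CCN genes, and clusters were named as like a state from fixed markers. Names rebuilt in this way can differ from those the study gave its cells. Among the named states Ccn3 was highest in the progenitor-like state in 12 of 13 libraries, and Ccn4 was highest in the ECM remodelling-like state in 11 of 13 and lowest in the progenitor-like state in 13 of 13. At the resolution used, 0.3, the 4 hyperplasia and tumour libraries had no lobular-like cluster (at 0.5 one held 150, 66, 51 and 1 barcodes of hyperplasia 1 and 2 and tumour 1 and 2), and in the 9 libraries that had one Ccn2 was highest there in 7 and Ccn5 in 6. Ccn2 was lowest in the progenitor-like state in 11 of 13 libraries, and Ccn1 in the adipogenesis-regulatory-like state in 12 of 13. These ranks leave out clusters that took no name. With unnamed clusters of at least 50 barcodes ranked too, a choice made after seeing the data, Ccn3 was highest in the progenitor-like state in 9 of 13, since unnamed clusters held more in puberty (35.6 CPM), the adult (46.6 CPM) and pregnancy (36.9 CPM). Ccn4 was then highest in the ECM remodelling-like state in 10 and lowest in the progenitor-like state in 10. Ccn2 was highest in the lobular-like state in 6 and lowest in the progenitor-like state in 7, Ccn1 lowest in the adipogenesis-regulatory-like state in 6 and Ccn5 highest in the lobular-like state in 2.

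**Figure D3:**
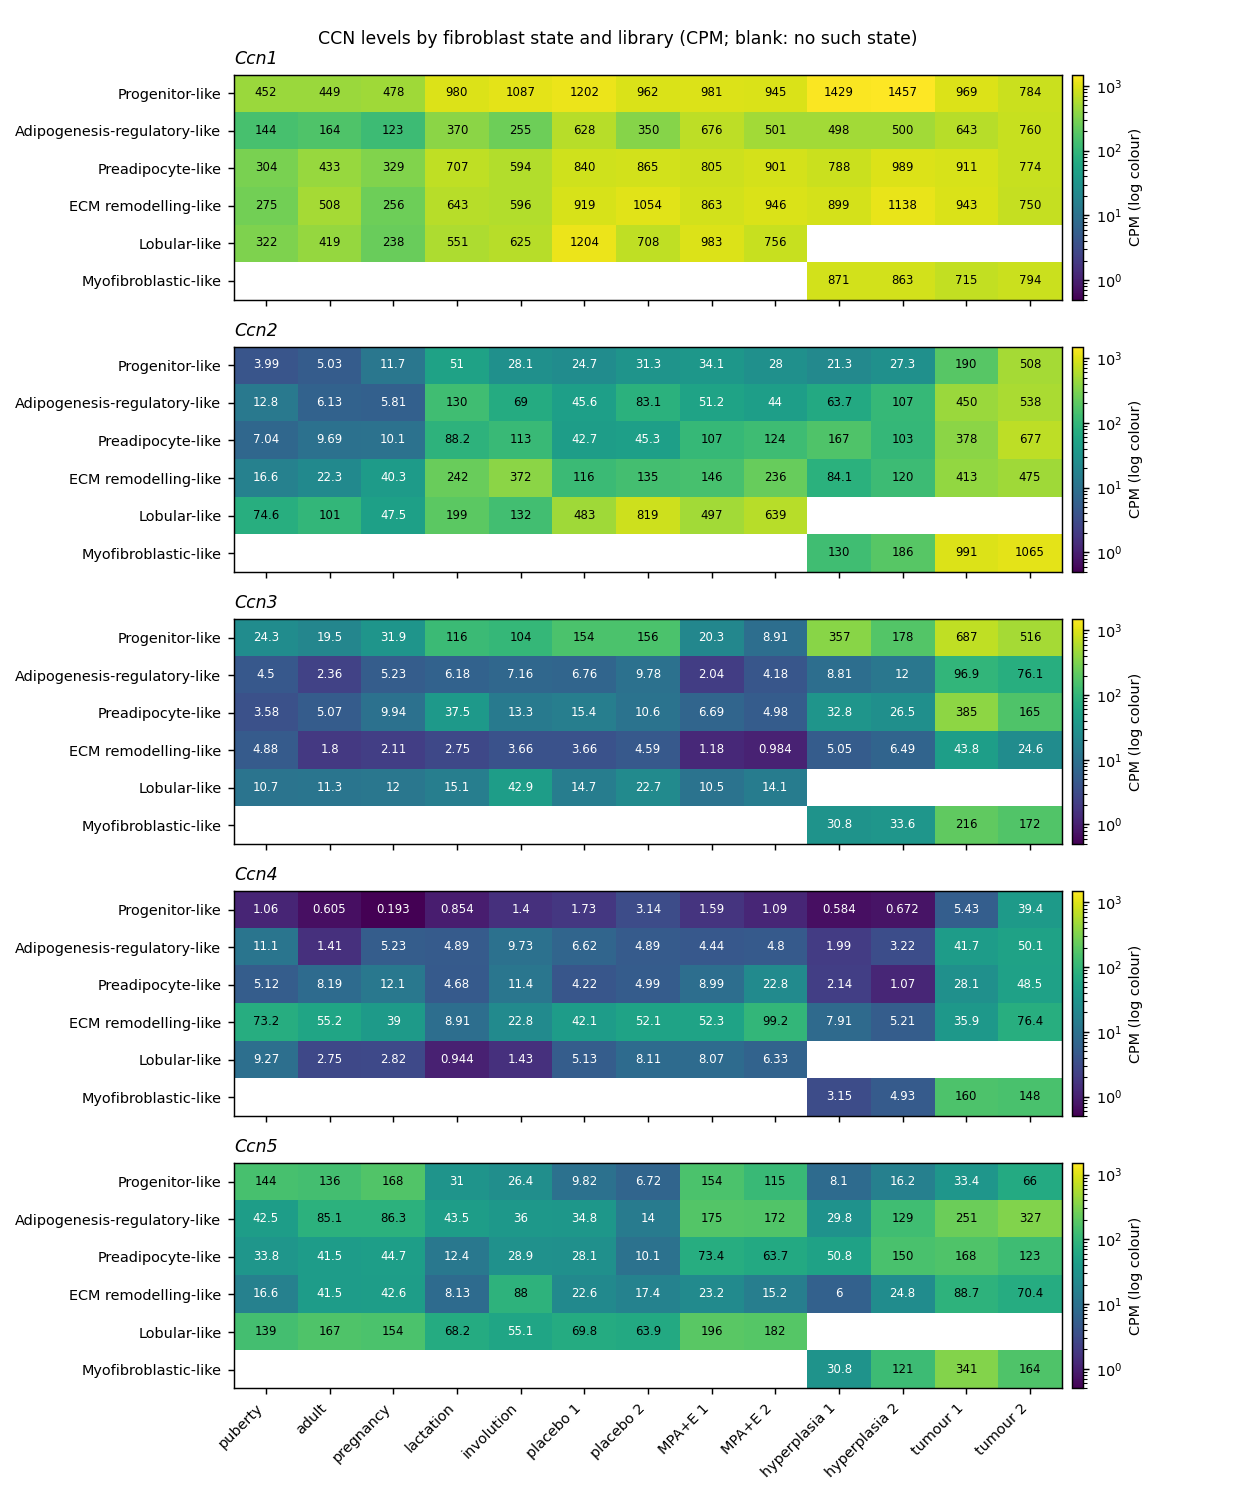
CPM of each CCN gene by fibroblast state (rows) and library (columns), with the colour on a log scale and blank cells where a library had no such state. Ccn3 runs along the progenitor-like row (154 and 156 CPM in placebo), Ccn4 along the ECM remodelling-like row (73.2 in puberty) and, in tumours, the myofibroblastic-like row (160 and 148).

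In the progenitor-like state, which holds the Pi16 and Dpp4 fibroblasts, Ccn3 was at 24.3, 19.5, 31.9, 116 and 104 CPM in the stages from puberty to involution. The later 2 stages were again the higher ones within this state. The class held 35.8%, 29.8%, 32.4%, 21.2% and 19.7% of barcodes in these stages, so it may not hold the same cells in each. Ccn3 was at 154 and 156 CPM in the class under placebo against 20.3 and 8.91 CPM under MPA+E, so the arms differed inside it as well. The class held 32.0% and 34.2% of barcodes under placebo and 16.5% and 21.2% under MPA+E, and a cluster without a name, led by Ctla2a and Tgm2, held 6.11% and 6.63% against 18.7% and 19.2%, so the class may not hold the same cells in both arms. At a clustering resolution of 0.5 the class held other cells. A cluster led by Ccn3, Cthrc1 and H19 then took no name and held 6.15% and 7.26% of barcodes under placebo against 3.32% and 1.61% under MPA+E. Ccn3 was there at 214 and 321 against 60.1 and 29.2 CPM, and in the progenitor-like state of that resolution at 143 and 108 against 6.46 and 5.66 CPM. Under placebo 56.3% and 46.4% of progenitor-like barcodes had a Ccn3 UMI, against 10.7% and 5.86% under MPA+E. With each barcode thinned to 2000 UMIs these shares were 19.2% and 16.5% against 1.68% and 1.15%. Other cells give the background before thinning. In the 9 libraries with at least 20 pericytes at most 0.889% of these had a Ccn3 UMI, at median depths of 1831 to 7415 UMIs. Among epithelial barcodes of MPA+E 2 it was 2 of 50 (4.00%), and among endothelial barcodes 1 of 25 (4.00%) in placebo 1, 2 of 75 (2.67%) in MPA+E 1 and 3 of 44 (6.82%) in lactation. These rest on 1 to 3 barcodes each. They were taken at other depths than the thinned shares, so they are not set against those. Before thinning, 0.746% and 0.889% of pericytes in MPA+E 1 and 2 had a Ccn3 UMI, beside the 10.7% and 5.86% of progenitor-like barcodes. Free RNA was not measured apart, so the MPA+E shares are not read as expression or as its absence. In MPA+E 2 the lobular-like state was at 14.1 CPM over 185 barcodes, with a counting interval that overlapped that of the progenitor-like state.

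Ccn5 in progenitor-like fibroblasts was at 9.82 and 6.72 CPM under placebo against 154 and 115 CPM under MPA+E, and at a clustering resolution of 0.5 at 6.90 and 7.77 against 242 and 176 CPM. In the adipogenesis-regulatory-like state it was at 34.8 and 14.0 against 175 and 172 CPM, and in the lobular-like state at 69.8 and 63.9 against 196 and 182 CPM. The ECM remodelling-like state stood apart, at 22.6 and 17.4 CPM under placebo against 23.2 and 15.2 CPM under MPA+E, with overlapping values. The thinned share of progenitor-like barcodes with a Ccn5 UMI was 1.37% and 1.23% under placebo against 18.8% and 15.2% under MPA+E, beside at most 1.82% of pericyte barcodes before thinning in libraries with at least 20. In MPA+E 1 a Ccn5 UMI was found before thinning in 3 of 28 epithelial (10.7%) and 4 of 75 endothelial barcodes (5.33%). A cluster that took no name and was led by Ctla2a, Tgm2 and Ccn5 itself held the most Ccn5, 138 and 136 CPM under placebo against 581 and 433 CPM under MPA+E, over 296, 382, 963 and 1666 barcodes. Hormone-responsive genes define that cluster, so its size is given as values only. In the stages Ccn5 was at 144, 136 and 168 CPM in the progenitor-like state of puberty, adult and pregnancy and at 31.0 and 26.4 CPM in that of lactation and involution, the order seen over all fibroblasts. At a clustering resolution of 0.5 a stage cluster led by Pgr, Il31ra and Tgm2, with Ccn5 among its 10 leading genes, took no name. It held 18.6%, 14.8% and 15.4% of barcodes in puberty, adult and pregnancy against 5.57% and 6.95% in lactation and involution. The progenitor-like class may thus not hold the same cells in each stage.

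Outside the tumours Ccn4, which binds decorin, had its highest level among the named states in the ECM remodelling-like state. It was there at 73.2, 55.2, 39.0, 8.91 and 22.8 CPM in the 5 stages, at 42.1 and 52.1 under placebo, 52.3 and 99.2 under MPA+E and 7.91 and 5.21 in hyperplasia. The lactation and hyperplasia libraries were the lowest, and the puberty value rests on 140 barcodes (1.97% of that library). In the progenitor-like state of the same 11 libraries Ccn4 lay between 0.193 and 3.14 CPM. The MPA+E 2 library, which had the highest Ccn4 of the hormone arms over all fibroblasts, also had the highest in this state, and 44.7% of its ECM remodelling-like barcodes had a UMI against 29.1% and 29.9% under placebo. In the 9 libraries with at least 20 pericytes these held 4 Ccn4 UMIs in all (0.804 CPM). Epithelial barcodes held more, with a Ccn4 UMI in 28 of 91 (30.8%) in placebo 2, 1 of 28 (3.57%) in MPA+E 1 and 2 of 50 (4.00%) in MPA+E 2, at median depths of 13212, 13570 and 8842 UMIs. The placebo 2 share was close to that of its ECM remodelling-like barcodes. The tumours had 2 and 7 pericyte barcodes only, with 1 and 21 Ccn4 UMIs.

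Among the named states Ccn2 was highest in the lobular-like state, named from Thbs4, Cilp and Bmp5, in 7 of the 9 libraries that had it. In it Ccn2 was at 74.6, 101, 47.5, 199 and 132 CPM in the 5 stages, at 483 and 819 under placebo and at 497 and 639 under MPA+E, while the progenitor-like state held 24.7 and 31.3 under placebo against 34.1 and 28.0 under MPA+E. The hormone arms overlapped in the lobular-like state. Thinned to 2000 UMIs, 34.1% and 43.9% of lobular-like barcodes had a Ccn2 UMI under placebo against 42.1% and 39.9% under MPA+E, against 2.48% to 3.95% of progenitor-like barcodes in these 4 libraries. Before thinning, 1.82% to 22.4% of pericyte barcodes had a Ccn2 UMI in libraries with at least 20, the lowest from 2 UMIs in pregnancy. Among epithelial barcodes before thinning it was 32 of 91 (35.2%) in placebo 2, 5 of 28 (17.9%) in MPA+E 1 and 18 of 50 (36.0%) in MPA+E 2. Free RNA of other cells was not measured apart from these. In lactation and involution the ECM remodelling-like state was the highest instead, at 242 and 372 CPM. Ccn1 ranged from 123 CPM (adipogenesis-regulatory-like, pregnancy) to 1457 CPM (progenitor-like, hyperplasia 2) over all named states.

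To hold state shares apart from levels within states, each MPA+E and tumour library was given the reference arm's level in each cluster at its own share of UMIs per cluster. For Ccn3 this gave 56.3 and 63.4 CPM in the MPA+E libraries, near the 74.5 CPM of placebo and above the 7.89 and 4.86 CPM observed. For Ccn5 it gave 50.6 and 48.4 CPM against 28.5 CPM in placebo and 221 and 166 CPM observed. For Ccn2 it gave 130 and 85.3 CPM, on either side of the observed 121 and 109 CPM. The shares rest on clusters whose genes may themselves respond, so this is arithmetic on these clusters only.

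**Figure D4:**
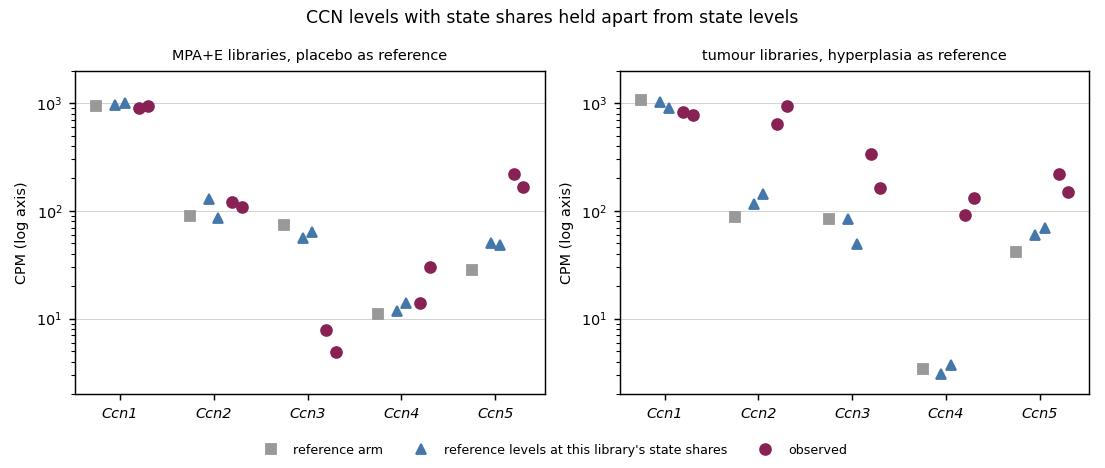
CPM of the CCN genes on a log axis in the reference arm (squares), as given by reference levels at each library's own cluster shares (triangles, 1 per library) and as observed (circles). For Ccn3 and Ccn5 under MPA+E (left) and for Ccn2 to Ccn5 in tumours (right) the circles lie apart from the triangles, as with 3.08 and 3.72 against 91.3 and 130 CPM for Ccn4 in tumours.

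In the tumours, Ccn2, Ccn3, Ccn4 and Ccn5 were above the hyperplasia of the same mice, and Ccn1 was slightly below it. Ccn4 was at 4.19 and 2.78 CPM in hyperplasia 1 and 2 and at 91.3 and 130 CPM in tumour 1 and 2, a log2 fold change of 5.02 ± 0.28 (n = 2 and 2). Ccn2 was at 87.8 and 86.4 CPM in hyperplasia and 645 and 948 CPM in the tumours, a log2 fold change of 3.17 ± 0.23. For both genes, and for the other members below, the groups did not overlap and both mice moved the same way. The share of all genes that did so was not counted. Ccn3 was at 102 and 69.4 CPM in hyperplasia and 339 and 163 CPM in the tumours (1.48 ± 0.38), and without 1 library this value ran from 0.93 to 2.04. Ccn5 was at 19.7 and 58.7 CPM in hyperplasia and 219 and 150 CPM in the tumours (2.42 ± 0.50), running from 1.64 without hyperplasia 1 to 3.20 without hyperplasia 2. The Ccn5 spread thus lay mostly in the hyperplasia. Ccn1 was at 965 and 1158 CPM in hyperplasia and 824 and 776 CPM in the tumours (-0.40 ± 0.18).

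Of 16302 genes tested with limma-voom in a fit of the tumour, hyperplasia, puberty and adult libraries, 4777 (29.3%) had an adjusted p under 0.05, 2503 (15.4%) higher and 2274 (13.9%) lower. Of the 5 members 4 were on the higher side, with a median log2 fold change of 2.42 against -0.01 for all genes, and again nothing is read from it. Median depth was 8703 and 8312 UMIs in hyperplasia and 10824 and 20256 in the tumours. The 5 pericyte markers, with Rgs5 at 0 by rule, summed to 13.7 and 12.7 CPM in hyperplasia and 29.6 and 32.5 CPM in the tumours, and the 6 myofibroblastic markers to 1874 and 851 against 4852 and 8761 CPM. The 6 epithelial markers, with Epcam at 0 by rule, summed to 20.3 and 59.8 CPM in hyperplasia against 4.11 and 1.78 CPM in the tumours, and the 5 endothelial markers, with Pecam1 at 0 by rule, to 5.75 and 12.8 CPM in hyperplasia, above both tumours (2.84 CPM in tumour 1). The 5 Schwann cell markers, with Sox10 at 0 by rule, summed to 25.7 and 29.9 CPM in hyperplasia against 19.8 and 15.1 CPM in the tumours. Their part in the CCN levels was not tested.

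Within the tumours the myofibroblastic-like state, which held 5.51% and 5.54% of hyperplasia and 40.4% and 71.2% of tumour barcodes, had the most Ccn2 and Ccn4. Ccn2 was there at 130 and 186 CPM in hyperplasia and 991 and 1065 CPM in the tumours, and Ccn4 at 3.15 and 4.93 against 160 and 148 CPM. Over all hyperplasia fibroblasts Acta2 was at 0.761 and 2.07 CPM and Tagln at 3.17 and 3.44 CPM. The paper saw αSMA-positive fibroblasts in tumours only. The class may thus not hold the same cells in both tissues, so its hyperplasia and tumour values are not a comparison within a state. The thinned share of barcodes with a Ccn4 UMI was 0.302% and 0.231% in hyperplasia and 23.4% and 23.0% in the tumours. Hyperplasia 1 and 2 had 1 pericyte barcode each, so no pericyte background is given for them. Of 25 endothelial barcodes in hyperplasia 1 none had a Ccn4 UMI, and of 61 epithelial barcodes in hyperplasia 2, before thinning, 23 had one (37.7%). Of 101 epithelial barcodes in tumour 2, before thinning, 14 had a Ccn4 UMI (13.9%) and 41 a Ccn2 UMI (40.6%). The state was made of a cluster led by Igfbp2, Col11a1 and Fmod and a cluster led by Cxcl5, Tnc and Cxcl2, which held most of the state in tumour 2. In hyperplasia the former held most of it, 252 and 340 barcodes against 81 and 102. Ccn2 was at 1423 and 1837 CPM in the former and 394 and 580 CPM in the latter in tumours 1 and 2. Ccn4 differed less between them, at 193 and 186 against 113 and 124 CPM.

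The higher levels were not confined to that state. In the progenitor-like state Ccn2 was at 21.3 and 27.3 CPM in hyperplasia and 190 and 508 CPM in the tumours, and Ccn3 at 357 and 178 against 687 and 516 CPM. Ccn4 in the ECM remodelling-like state was at 7.91 and 5.21 CPM in hyperplasia and 35.9 and 76.4 CPM in the tumours, and Ccn5 in the adipogenesis-regulatory-like state at 29.8 and 129 against 251 and 327 CPM. Groups did not overlap in these 4 pairs, although tumour 2 had 125 progenitor-like barcodes only. The pairs were picked as examples, and the share of all gene and state pairs without overlap was not counted. Free RNA from other tumour cells was not measured apart, so its part in these levels was not tested. Hyperplasia levels at the tumours' cluster shares gave 115 and 144 CPM for Ccn2, 84.1 and 49.1 for Ccn3, 3.08 and 3.72 for Ccn4 and 59.8 and 68.7 for Ccn5, each below the observed level. The myofibroblastic-like reference rests on 333 and 442 hyperplasia barcodes, which may not be the same cells as in the tumours. Cells found in tumours only have no reference level, so this is arithmetic on these clusters and does not part shares from levels.

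Among the pathway lists, most contractile genes and most TGF-beta induced genes rose in tumours over hyperplasia, by limma-voom with adjustment over all genes. Of 12 SRF targets 9 rose and none fell, with a median log2 fold change of 2.67. Acta2, smooth muscle actin, was at 0.761 and 2.07 CPM in hyperplasia and 228 and 698 CPM in the tumours (8.25 ± 0.98, adjusted p 0.00600), and Tagln at 3.17 and 3.44 against 448 and 1117 CPM (7.74 ± 0.57, adjusted p 0.00208). Of 12 TGF-beta induced genes 8 rose and 1 fell, the median being 1.30. Ltbp2 rose from 0.602 and 0.483 to 195 and 139 CPM (adjusted p 0.000955), while Tgfbi fell by 3.06 on the log2 scale (adjusted p 0.00467). Of 20 TEAD-YAP targets 6 rose and 1 fell, with a median of 0.31, and Igfbp3 rose from 182 and 109 to 920 and 629 CPM (2.43 ± 0.37, adjusted p 0.00994). Of 16 Hippo pathway genes 1 rose, Tead1 (1.14 ± 0.18, adjusted p 0.0114), and 2 fell, of which Sav1 (adjusted p 0.04999) lost its call in 5 of the 6 fits that leave out a library and under 6 other settings.

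Of 18 CCN receptors and partners 4 rose and 4 fell. Among those that fell, Dcn was also a gene of the barcode rule, so its level was not independent of that rule. Its call was kept with no marker rule for barcodes. Bmp4 and Bmp2, whose proteins CCN factors bind, fell from 60.2 and 64.0 to 7.88 and 2.46 CPM and from 50.3 and 54.6 to 10.5 and 3.99 CPM, Dcn fell by 1.63 on the log2 scale, and Tgfb1 rose from 23.0 and 21.4 to 64.1 and 97.8 CPM (1.84 ± 0.25, adjusted p 0.00809 by limma-voom). Of 12 Wnt targets and regulators tested 5 rose, among them Sfrp2 and Lgr5, and 3 fell. Of 20 immediate early genes 9 fell and 1 rose, Klf4 falling from 5120 and 3932 to 1860 and 635 CPM, and of 6 heat-shock genes 2 fell. Without 1 hyperplasia library the limma-voom calls fell to 242 (without hyperplasia 1) and 314 (without hyperplasia 2), and of the genes named here Ltbp2, Tgfbi and Tagln were called in all 6 fits that leave out a library, Acta2, Tead1, Tgfb1, Bmp4, Bmp2, Dcn and Sfrp2 in 4, Igfbp3 and Lgr5 in 5 and Klf4 in 2.

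Against normal glands, taken as the puberty and adult libraries, hyperplasia had more Ccn1, Ccn2 and Ccn3 and less Ccn4 and Ccn5. Strain background, sort, age and reporter allele differ between these groups, so they and hyperplasia cannot be told apart. The hyperplasia libraries are those that the tumours were set against, so the values of these comparisons are not independent. Ccn1 was at 339 and 414 CPM in puberty and adult and 965 and 1158 CPM in hyperplasia (log2 fold change 1.46 ± 0.17), Ccn2 at 16.2 and 23.2 against 87.8 and 86.4 CPM (2.12 ± 0.22), and Ccn3 at 15.3 and 12.5 against 102 and 69.4 CPM (2.58 ± 0.38). The groups did not overlap for these 3 genes, nor for Ccn4 and Ccn5 below, and the share of all genes without overlap was not counted. The placebo libraries of wild-type mice lay close to hyperplasia for Ccn1 (1006 and 888 CPM), Ccn2 (71.4 and 107 CPM) and Ccn3 (74.5 and 74.5 CPM), so these differences depend on which wild-type libraries stand for the normal gland. Ccn4 was at 6.18 and 7.30 against 4.19 and 2.78 CPM (-1.05 ± 0.29), and its placebo values (10.6 and 11.6 CPM) lay further above hyperplasia. Ccn5 was at 97.5 and 98.8 against 19.7 and 58.7 CPM (-1.56 ± 0.48), running from -2.35 without hyperplasia 2 to -0.79 without hyperplasia 1, and its placebo values (31.2 and 26.0 CPM) lay inside those of hyperplasia. The endothelial markers summed to 23.1 and 27.1 CPM in the normal libraries against 5.75 and 12.8 CPM in hyperplasia, and the 5 immune markers, with Ptprc at 0 in all 4 libraries, to 2.32 and 2.86 against 6.58 and 7.65 CPM. The epithelial markers overlapped, at 21.6 and 30.6 against 20.3 and 59.8 CPM, and the pericyte markers were at 9.17 and 5.88 against 13.7 and 12.7 CPM. The 5 muscle markers summed to 8.39 and 4.62 against 0.726 and 1.33 CPM, and the 5 Schwann cell markers, with Sox10 at 0 by rule, to 75.5 and 32.7 against 25.7 and 29.9 CPM. Their part in the CCN levels was not tested.

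In the same limma-voom fit 2280 of 16302 genes (14.0%) had an adjusted p under 0.05 for hyperplasia against normal, 1255 (7.70%) higher and 1025 (6.29%) lower. Of the 5 members 3 were on the higher side, with a median log2 fold change of 1.46 against -0.01 for all genes, a count that is a description like those above. Of 20 TEAD-YAP targets 3 rose and none fell, and Ankrd1 rose from 0.431 and 0.406 to 2.34 and 2.58 CPM (2.51 ± 0.37, adjusted p 0.0172). Of 16 Hippo pathway genes 3 rose, namely Tead3, Wwtr1 (TAZ) and Yap1, the last from 27.5 and 34.1 to 59.8 and 45.4 CPM (0.73 ± 0.18, adjusted p 0.0480). Yap1 lost its call also with no filter on low counts, with a mitochondrial limit of 5% and with no marker rule, and Ankrd1 with no marker rule. Of 20 immediate early genes 9 rose and none fell, and of 12 Wnt targets and regulators 5 rose, Axin2 from 4.23 and 7.12 to 25.8 and 24.5 CPM (adjusted p 0.0288). Of 12 TGF-beta induced genes 2 rose and 1 fell, of 12 SRF targets 1 rose and 4 fell (3 called in all, without Acta2 and Tagln, when clusters of over 50% doublets were left out), of 6 heat-shock genes 1 fell, and of 18 receptors and partners 2 rose and 1 fell, with Bmp4 at 5.23 and 3.98 against 60.2 and 64.0 CPM (3.76 ± 0.51, adjusted p 0.0137). Each of these named genes lost its call without puberty, adult, hyperplasia 1 or hyperplasia 2 (8, 183, 2 and 1 genes called), so the calls rest on all 4 libraries. DESeq2 called 5 TEAD-YAP targets, 5 Hippo pathway genes, 7 genes induced by TGF-beta, 9 SRF targets, 15 immediate early genes and 7 receptors and partners here.

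Outside the fibroblasts the members differed in where they were found. In pericytes, over 1105 barcodes of 9 libraries with at least 20, Ccn1 was at 108 to 456 CPM and Ccn2 at 7.73 to 82.8 CPM, while Ccn3, Ccn4 and Ccn5 had 6, 4 and 8 UMIs in all. In epithelial barcodes of 7 libraries Ccn1 was at 42.1 to 420 CPM, Ccn2 at 18.7 to 317 CPM and Ccn4 at 4.27 to 66.8 CPM, the last highest in hyperplasia 2. In endothelial barcodes of 7 libraries Ccn1 was at 117 to 1851 CPM. Ccn3 and Ccn5 had 3 and 16 UMIs in the 569 epithelial barcodes and 12 and 6 UMIs in the 409 endothelial barcodes.

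**Figure D5:**
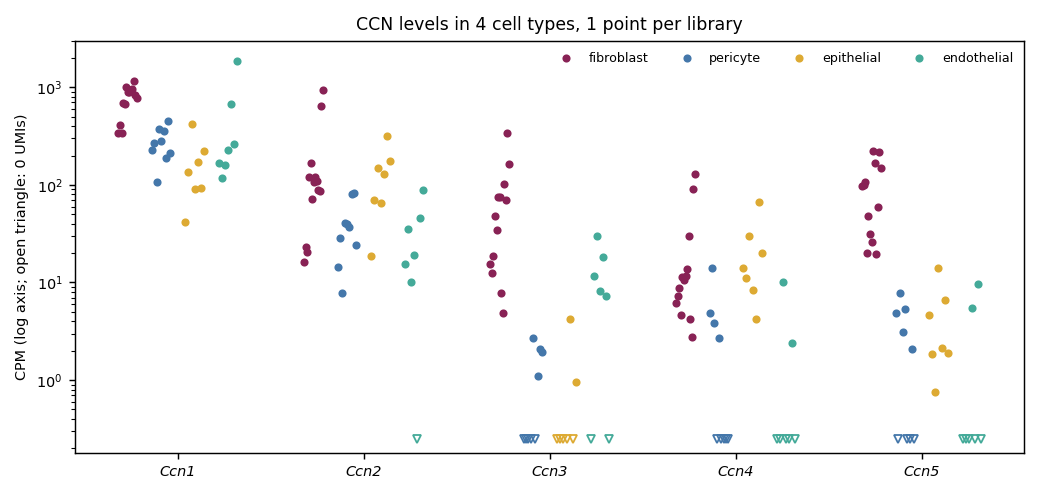
CPM of the CCN genes on a log axis in fibroblasts and in pericyte, epithelial and endothelial barcodes, 1 point per library with at least 20 such barcodes, and open triangles for 0 UMIs. Ccn1 is present in all 4 cell types, whereas Ccn3 reaches at most 2.68 CPM in pericytes.

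The pericytes were not used to choose the members, so the hormone comparison was tested there with edgeR. Ccn1 was at 354 and 189 CPM in placebo pericytes and 456 and 212 CPM in MPA+E pericytes, a log2 fold change of 0.26 ± 0.35 (adjusted p 0.898). Ccn2 was at 37.2 and 79.9 CPM under placebo against 82.8 and 24.2 CPM under MPA+E, a log2 fold change of -0.21 ± 0.50 (adjusted p 0.947). For both genes the arms overlapped and the sign turned when a library was left out, so at 114 to 225 pericyte barcodes per library no difference was detectable. Of 7681 genes 71 (0.924%) were called in pericytes, and none of the genes of the 8 pathway lists was, with 750 genes at an unadjusted p under 0.05. Among the lists, 7 of 12 SRF targets, 6 of 20 immediate early genes and 5 of 10 TGF-beta induced genes had such an unadjusted p, the other lists had 0 or 1 each, and DESeq2 called 0 of the genes of any list. Ccn3, Ccn4 and Ccn5 had too few UMIs to test.

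The genes whose log2 CPM ran most like each member's over the 13 libraries are given as a description, since the libraries share groups, depth and handling. Among 7866 genes with a mean of at least 10 CPM, Ccn1 ran most like Rai1 (Pearson r 0.977), Zfp384 (0.977) and 8030462N17Rik (0.964), and Ccn2 most like Susd6 (0.981), Bhlhe41 (0.971) and Fmn1 (0.967). Ccn3 ran most like Igfbp3 (0.947), Dkk2 (0.945) and Fbln1 (0.921), of which Igfbp3 and Dkk2 also fell under MPA+E. Ccn4 ran most like Gpc1 (0.976), Smim3 (0.966) and Timp1 (0.949), and Ccn5 most like Gas6 (0.943), with Frk (0.903) also among its 3 nearest genes. Spearman's rho for the genes named here was lowest for Fmn1, at 0.830, and highest for Dkk2, at 0.967. Between members the highest Pearson correlation was that of Ccn2 with Ccn4 (r 0.75, rho 0.648), the highest Spearman correlation that of Ccn4 with Ccn5 (r 0.62, rho 0.654), and the lowest of both kinds that of Ccn3 with Ccn5 (r -0.28, rho -0.32), so the members did not run as a single group.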

How the data were processed

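UMI counts per gene and barcode were used as deposited. The authors had made these counts with Cell Ranger 6.1.2 on the mm10 build, and the filtered matrices carry no normalization. The kit was a 10x 3′ chemistry, which marks strand and counts molecules near the 3′ end. The members and the gene lists were chosen with earlier results of these data known.

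Total UMIs per library ran from 56551189 to 112550204, and fibroblast UMIs from 4.75e+07 to 1.03e+08. Counts were summed over fibroblast barcodes per library, since cells are not replicates, and CPM divides by all UMIs of those barcodes. Groups came from the labels. MPA+E and placebo were compared with edgeR 4.0.16 (quasi-likelihood, TMM, filterByExpr), and tumour, hyperplasia and normal (puberty and adult) libraries with limma-voom (limma 3.58.1), after the study's methods, in R 4.3.3. Adjusted p-values are Benjamini-Hochberg over all genes tested. The labels pair tumour and hyperplasia libraries by mouse, and their deviations from the group means correlated at 0.0954 over 16001 genes. Intervals of levels are exact Poisson intervals and shares of barcodes were also taken after thinning to 2000 UMIs.

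Stages, hormone arms and raGFP-Wnt1 tissues were each integrated on their own in Seurat 5.3.0 (1000 features without CCN genes and markers, 30 dimensions) and clustered at resolution 0.3. A cluster took a state's name with at least 3 of its markers raised 2-fold, or 4 where none was among its 10 leading genes, and states under 50 barcodes were not ranked. Doublets were scored with Scrublet in scanpy 1.11.5, and barcodes in the highest scores (0.8% per 1000 barcodes, 3.86% to 10.6% per library) were removed in an alternative only, not in the main values. Pericyte barcodes had at least 2 UMIs of Rgs5 and no fibroblast signature.

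Named were the 5 members and Ccn6, the 3 genes most correlated with each member (1 gene is not reported here), up to 4 called genes of each list with the largest change, and markers for the labels. The fits were tested on simulated data with known changes. The simulation gave all genes and libraries the same spread, so it does not show how the fits perform at the spread of these libraries. DESeq2 1.42.0, other filters, scalings and barcode limits and the leaving out of each library were tried as alternatives. Cell annotation by the study was not used here.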

Additional observations from a re-analysis of the deposited data

How the results depend on the processing

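Each direction of a CCN gene in fibroblasts was kept under the alternatives, apart from Ccn1 under MPA+E, whose value lay near 0 and changed sign between -0.11 and 0.03. Over 220 such values 199 moved by less than the error and 21 by more, and of 982 values of listed genes 221 lost their call and 1 reversed, Wif1 under MPA+E at -0.86 with no marker rule for barcodes. With no marker rule for barcodes, the ratio of highest to lowest stage was 2.10 for Ccn1, whose lowest stage became pregnancy, and 4.55 for Ccn5, whose highest became the adult. With the mean over barcodes in place of the sum it was 2.13 for Ccn1, whose highest stage became involution, 9.36 for Ccn2 and 4.62 for Ccn5. Of 195 shares of barcodes by state 79 moved beyond their interval, 65 of them by thinning and 14 by a clustering resolution of 0.5. Thinning lowers detection by construction and moved each of the 65 results, so nothing is read from that count.

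The counts of called genes depend on single libraries. Under MPA+E 678 genes were called, 1358 with DESeq2 and 22 to 900 without 1 library, the lowest without placebo 1 (22) and placebo 2 (42). Tumour over hyperplasia gave 4777 genes, and 242 to 7120 without 1 library. Hyperplasia over normal gave 2280 genes, 4017 with DESeq2 and 1 to 4810 without 1 library. Pericytes gave 71 genes, 30 with no filter on low counts, 125 with at least 3 Rgs5 UMIs and 108 to 492 without 1 library, where Ccn1 ran up to 0.69 without placebo 1 and turned to -0.15 without placebo 2 and -0.32 without MPA+E 1, and Ccn2 ran down to -1.27 without MPA+E 1 and turned to 0.45 without placebo 2 and 0.37 without MPA+E 2. The cause of these shifts was not tested. A lone library of an arm was assumed to vary like the others.

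With the mouse as a replicate block the tumour fit called 4898 genes, and of the listed genes named by the rule 1 lost its call there, Sav1. The hormone libraries share only a number, with deviations that correlated at 0.396 over 15642 genes, and a block on that number gave 2451 genes in fibroblasts and 234 in pericytes. Leaving out clusters of over 50% doublets was an alternative chosen after seeing the data. Depth limits Ccn4, with 201 to 2741 UMIs per library outside the tumours, and Ccn3 under MPA+E, with 687 and 443 UMIs, and Ccn3 to Ccn5 in pericytes could not be tested.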
